A study of Homo sapiens with 9 samples.

Results

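UPF1 knockdown was compared with a control siRNA (labelled SCR) in K562, an erythroleukaemia cell line that makes embryonic and fetal globins. All libraries with these 2 treatments were used, 3 UPF1 and 3 SCR, which makes 6 of the 9 libraries of the series. UPF1 cells received siRNA against UPF1, SCR cells a non-targeting control siRNA (their treatment is given as WT), both were transfected again before harvest, and harvest was 4 days after transfection. No genotype or drug differed between the groups, and the cell line is the only one in the series. RNA was sequenced from poly(A) libraries, so each value is a steady-state RNA level in a bulk culture, where a loss of cells of one kind and a loss of RNA per cell cannot be told apart.

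UPF1 is an RNA helicase at the centre of nonsense-mediated mRNA decay (NMD). When a ribosome terminates upstream of an exon junction complex, a protein mark that splicing leaves on the mRNA, UPF1 is phosphorylated by SMG1 and recruits factors such as SMG5 and SMG6 that bring about decay. The pathway removes mRNAs with premature stop codons, including splice isoforms of many RNA-binding protein genes that hold a so-called poison exon, and it also lowers a set of ordinary mRNAs with upstream reading frames, introns in the 3′ UTR or long 3′ UTRs.

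Each library held between 73478797 and 103625443 expected counts. Mitochondrial transcripts took 2.40% to 2.51% of the counts in SCR and 1.77% to 1.92% in UPF1. All 12 markers of K562 identity, among them GATA1, KLF1, HBG1 and TFRC, reached 1 TPM (Salmon's length-corrected abundance, relative to all transcripts of the library) in at least 1 library, but their sum was 34600 to 35988 TPM in SCR and 21240 to 21905 in UPF1, and 9 of the 12 fell (median log2 fold change -0.70). Of 20 lymphoid, 20 myeloid and 16 epithelial or fibroblast markers, 16, 15 and 11 stayed under 1 TPM in all 6 libraries. The summed lymphoid markers were at 84.6 to 87.2 TPM in SCR and 34.5 to 39.9 TPM in UPF1, mostly CD52, the myeloid markers at 85.9 to 88.8 and 108 to 115 TPM, with MS4A3 the largest part (1.24 on the log2 scale) although of the tested members 1 of 11 rose and 4 fell, and the epithelial and fibroblast markers at 537 to 558 and 430.2 to 465 TPM, mostly VIM.

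UPF1 itself was lower in every UPF1 library. Its level was 251, 266 and 263 CPM (read counts relative to the library total, scaled by TMM) in the SCR libraries and 104, 106 and 104 in the UPF1 libraries (log2 fold change -1.31 ± 0.031, adjusted p = 2.41e-10; ± is the SE of the fit throughout). The main coding transcript, UPF1-201, was at 41.2, 43.9 and 42.7 TPM in SCR and 19.5, 19.4 and 19.1 TPM in UPF1, and a second coding transcript, UPF1-207, at 3.91, 5.29 and 5.33 and 2.33, 2.75 and 2.53 TPM. Both were lower, the groups did not overlap for either, and a part of the UPF1 mRNA remained.

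Across all expressed genes, 4345 of 17184 (25.3%) were called changed at an adjusted p of at most 0.005 in edgeR, 2131 upward (12.4%) and 2214 downward (12.9%). The changes were mostly small: called genes had a median absolute log2 fold change of 0.31. Changes of more than 2-fold were mostly upward, with 258 genes above and 55 below. The near-equal split between directions depended on the scaling: on TPM, which moved the median of all genes from 0.016 to 0.17, 3213 genes were higher and 282 lower, and with the trend over gene length removed 1495 were higher and 3148 lower. Of the called genes, 2840 were also called without each library in turn.

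Noncoding genes that changed mostly rose. Of 2995 lncRNA genes 253 rose (8.45%, beside 12.4% of all genes) and 51 fell (1.70%, beside 12.9%), and of 696 pseudogenes 98 rose (14.1%) and 12 fell, whereas of 13210 protein-coding genes 1777 rose and 2146 fell. Among protein-coding genes, those whose most abundant coding transcript in SCR had an intron more than 50 nt after the stop codon rose in 32.2% of 59 cases and fell in 6.78%, against 13.5% and 16.6% of the 12824 others. Length sorted the genes further. In the quartile with the shortest 3′ UTRs 7.22% rose and 28.4% fell, and in the quartile with the longest 19.7% rose and 7.64% fell. The whole transcript showed the same gradient, from 7.003% up and 32.5% down in the shortest quartile to 21.5% up and 5.65% down in the longest, and which length the gradient belongs to was not tested. Removing the trend over gene length changed the medians of the shortest and longest transcript quartiles from -0.13 and 0.098 to -0.17 and -0.0069.

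**Figure D1:**
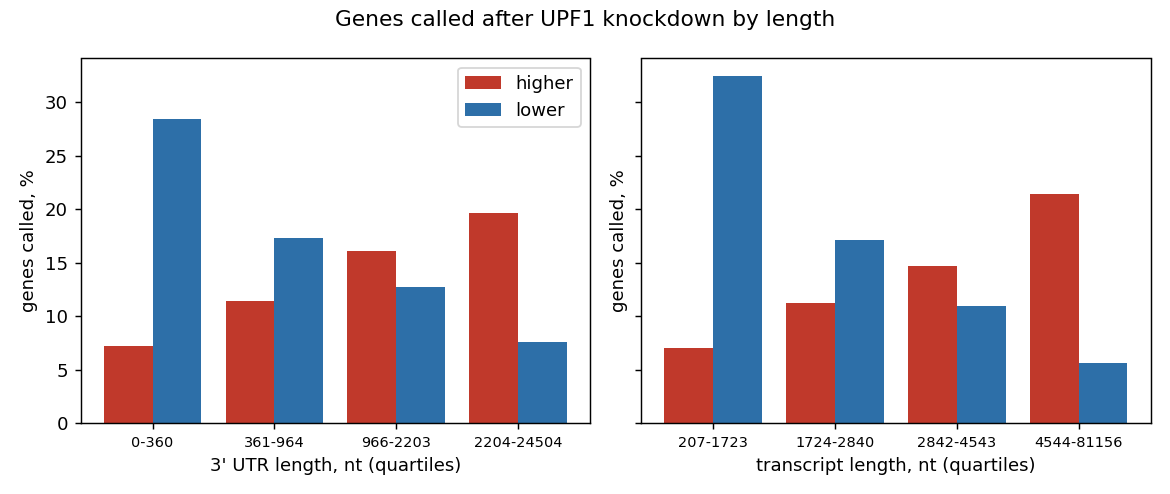
Share of protein-coding genes called higher (red) or lower (blue) in UPF1 than in SCR, in percent, by quartile of the 3′ UTR length (left) and of the length (right) of the most abundant coding transcript in SCR, in nt. The red bars grow from 7.003% to 21.5% and the blue bars shrink from 32.5% to 5.65% over the transcript length quartiles.

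Genes known as NMD substrates mostly rose. Of 20 commonly used endogenous reporters of NMD, 15 rose and 0 fell in edgeR, where 1 fall had an unadjusted p under 0.05 and DESeq2 called 0 (median log2 fold change 0.52, and 0.42 with the length trend removed, beside 0.016 and -0.052 over all genes). RP9P, a transcribed pseudogene (the better covered of the gene IDs with that symbol), was at 5.40, 5.37 and 5.46 CPM in the SCR libraries and 16.4, 16.3 and 16.9 in the UPF1 libraries (log2 fold change 1.61 ± 0.063, adjusted p = 5.46e-09). GAS5, a noncoding snoRNA host that is translated over a short reading frame, was at 295, 292 and 285 CPM in the SCR libraries and 782, 745 and 831 in the UPF1 libraries (log2 fold change 1.43 ± 0.037, adjusted p = 3.58e-10). Neither gene's groups overlapped, which also held for 51.0% of all genes tested. Every UPF1 library was more than 2-fold above every SCR library for both.

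More of the other NMD factors rose than fell: in a list without UPF1, 8 of 14 rose and 2 fell (57.1% and 14.3%). Of all genes 12.4% rose and 12.9% fell. The median of the list was 0.23, and 0.18 with the length trend removed. On length-scaled counts 5 rose and 1 fell (median 0.15). SMG1, the kinase that phosphorylates UPF1, was at 101.3, 108 and 98.8 CPM in the SCR libraries and 169, 149 and 157 in the UPF1 libraries (log2 fold change 0.62 ± 0.047, adjusted p = 1.16e-06). UPF2, which bridges UPF1 to the exon junction complex, was at 41.8, 46.1 and 45.05 CPM in the SCR libraries and 62.4, 62.0 and 64.9 in the UPF1 libraries (log2 fold change 0.51 ± 0.043, adjusted p = 2.80e-06). SMG1 shares long stretches with pseudogene copies, so its count is uncertain. The members that fell were PNRC2 and GSPT1, the termination factor eRF3a, by 0.13 and 0.12 on the log2 scale. Both were called in 2 of the 6 fits without 1 library, and on TPM without further scaling, where the median of all genes sat at 0.17, their values were 0.079 and 0.031.

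Host genes of small nucleolar RNAs also mostly rose. These genes carry snoRNAs in their introns, and their spliced exons form noncoding RNAs. Of them, 16 of 24 rose and 4 fell (66.7% and 16.7%, beside 12.4% and 12.9% of all genes). The median was 0.65, and 0.62 with the length trend removed. The list shares 5 genes with the NMD reporters. SNHG7 was at 21.9, 23.6 and 19.5 CPM in the SCR libraries and 91.5, 88.8 and 86.2 in the UPF1 libraries (log2 fold change 2.04 ± 0.059, adjusted p = 6.48e-10), and SNHG17 at 30.4, 30.4 and 27.1 against 87.5, 87.3 and 83.4 CPM (log2 fold change 1.56 ± 0.048, adjusted p = 9.94e-10). The 2 named falls were far smaller. DANCR went from 223, 209 and 209 to 171, 173 and 177 CPM (log2 fold change -0.30) and SNHG30 from 37.1, 34.5 and 37.97 to 30.4, 27.8 and 30.5 CPM (-0.31).

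Targets of the integrated stress response, the ATF4 programme of amino acid supply and redox defence, mostly rose. Of 30 tested 21 rose and 1 fell (70% and 3.33%, beside 12.4% and 12.9% of all genes). The median was 0.43, and 0.37 with the length trend removed. STC2, a secreted glycoprotein, was at 15.6, 16.5 and 16.6 CPM in the SCR libraries and 39.4, 39.3 and 38.97 in the UPF1 libraries (log2 fold change 1.27 ± 0.044, adjusted p = 2.28e-09), and ADM2, a peptide hormone, at 4.09, 3.77 and 3.85 against 8.26, 8.57 and 8.40 CPM (log2 fold change 1.11 ± 0.085, adjusted p = 1.30e-06). The list shares 4 genes with the NMD reporters. The exception was PPP1R15B, a phosphatase subunit for eIF2α (127, 133 and 130.1 against 113, 118 and 120.0 CPM, log2 fold change -0.15), called in 2 of the 6 fits without 1 library and at 0.059 on unscaled TPM.

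Neighbouring stress and metabolic groups moved less uniformly. In serine, asparagine and one-carbon synthesis 6 of 20 rose and 3 fell (30% and 15%, beside 12.4% and 12.9% of all genes). ALDH1L2, a mitochondrial folate enzyme, was at 8.30, 10.3 and 8.22 CPM in the SCR libraries and 18.9, 19.7 and 19.8 in the UPF1 libraries (log2 fold change 1.13 ± 0.081, adjusted p = 8.18e-07), and PHGDH, the first enzyme of serine synthesis, at 65.0, 63.8 and 68.7 against 98.0, 105 and 102 CPM (log2 fold change 0.63). Of the unfolded protein response and ER folding genes 10 of 30 rose and 4 fell (33.3% and 13.3%), or 6 and 3 on length-scaled counts. The largest named rises were in EDEM1 (0.59), which directs misfolded glycoproteins to degradation, and in the stress sensor ERN1 (0.59). In the lysosome and autophagy list 13 of 48 rose and 3 fell (27.1% and 6.25%), or 9 and 7 with the length trend removed. GABARAPL1, an autophagosome protein, was at 13.2, 11.7 and 11.6 against 22.4, 22.3 and 23.0 CPM (log2 fold change 0.90). The lysosomal membrane protein LAMP2 rose by 0.61 on the log2 scale. The protease gene CTSL went the other way (66.6, 64.0 and 65.8 against 44.5, 44.4 and 44.3 CPM, log2 fold change -0.56).

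The zinc finger genes of chromosome 19, a large family of transcriptional repressors, had a median of 0.23 (length trend removed 0.15), and 35 of 228 rose and 5 fell (15.4% and 2.19%, beside 12.4% and 12.9% of all genes). On length-scaled counts 16 rose and 4 fell, and with the length trend removed 28 and 10. ZNF383 was at 5.61, 5.69 and 5.77 against 11.3, 10.5 and 11.005 CPM (log2 fold change 0.94). Members resemble each other, so reads may be divided between them with error. The chaperones of the heat shock list mostly fell, since 0 of 25 rose and 16 fell (median -0.20, length trend removed -0.25, and 0.036 on unscaled TPM), and 1 rise had an unadjusted p under 0.05 and DESeq2 called 1. CCT2, a chaperonin subunit, was at 593, 585 and 608 against 432, 431 and 451 CPM (log2 fold change -0.44).

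Most genes of the large housekeeping complexes fell, beside 12.9% of all genes. Among the cytosolic ribosomal proteins, 1 of 79 rose and 75 fell (median -0.33, length trend removed -0.35). RPL35 was at 1283, 1158 and 1223 CPM in the SCR libraries and 874, 874 and 869 in the UPF1 libraries (log2 fold change -0.49 ± 0.034, adjusted p = 6.13e-07). The 1 riser was RPS27, listed at 7.43, 8.47 and 8.29 against 12.01, 11.5 and 12.5 CPM. Of the nuclear-encoded respiratory chain subunits 2 of 81 rose and 62 fell (median -0.26, length trend removed -0.29), where one riser was ATP5MC2 at 5.29, 4.67 and 3.85 against 7.497, 5.92 and 7.16 CPM. Transcripts without a match in the annotation were left out of the gene sums, and their part in the low levels of RPS27 and ATP5MC2 was not tested. Of the mitochondrially encoded subunits 0 of 13 rose and 11 fell (median -0.48), and for these 0 rises had an unadjusted p under 0.05 and DESeq2 called 0. The share of counts on mitochondrial transcripts was lower in the same libraries. NDUFB2, of complex I, was at 129, 118 and 128 against 86.6, 85.5 and 93.5 CPM (log2 fold change -0.50 ± 0.043, adjusted p = 3.40e-06), and MT-CO3, of cytochrome c oxidase, at 3597, 3585 and 3957 against 2372, 2169 and 2297 CPM (log2 fold change -0.70 ± 0.041, adjusted p = 1.66e-07). Mitochondrial ribosomal proteins (4 of 78 rose and 48 fell, median -0.20) and proteasome subunits (0 of 37 rose and 22 fell, median -0.17) moved the same way, and for the proteasome 2 rises had an unadjusted p under 0.05 and DESeq2 called 0. With the length trend removed the medians of all these lists lay between -0.22 and -0.48. That setting also lowered the median of all genes, from 0.016 to -0.052. On unscaled TPM those of the mitochondrial ribosomal proteins and the proteasome were 0.017 and 0.044, and on TMM-scaled TPM -0.080 and -0.055, below the medians of all genes there (0.17 and 0.093).

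Smaller falls ran through RNA metabolism, where the shares of all genes were 12.4% up and 12.9% down. Of the translation factors 3 of 46 rose and 30 fell (median -0.17), of the ribosome biogenesis genes 2 of 55 rose and 29 fell (-0.15), of the hnRNP and PTB proteins 2 of 31 rose and 20 fell (-0.15) and of the core spliceosome 1 of 40 rose and 16 fell (-0.11). These medians are close to the shift that a change of scaling makes: on TMM-scaled TPM they were -0.047, 0.037, -0.036 and -0.0086, where the median of all genes was 0.093, so each stayed below it although that of ribosome biogenesis was above 0. EIF4A2, a helicase of translation initiation, rose (274, 281 and 275 against 344, 347 and 363 CPM, log2 fold change 0.35). In the mitosis and spindle list 1 of 48 rose and 19 fell, with PTTG1, the securin, at 106, 96.6 and 101.2 against 73.9, 70.6 and 72.5 CPM (log2 fold change -0.49) and cyclin B1 (CCNB1) at -0.30. The median of that list was -0.099 and on TMM-scaled TPM 0.030.

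The globins, the main product of K562 as an erythroid line, mostly fell. Of the globins and the α-globin chaperone AHSP, 0 of 10 rose and 9 fell, with a median of -0.94 (length trend removed -0.96), and 0 rises had an unadjusted p under 0.05 and DESeq2 called 0. HBE1, embryonic ε-globin, was at 2388, 2133 and 2257 CPM in the SCR libraries and 1007, 1011 and 1129 in the UPF1 libraries (log2 fold change -1.11 ± 0.048, adjusted p = 1.28e-08), and HBA2, α-globin, at 687, 669.9 and 688 against 338, 350.2 and 317 CPM (log2 fold change -1.02 ± 0.035, adjusted p = 2.01e-09). HBA1 and HBA2, and HBG1 and HBG2, are near-identical, so single values within these pairs are uncertain. In haem synthesis and breakdown 2 of 17 rose and 8 fell (11.8% and 47.1%, beside 12.4% and 12.9% of all genes). ALAS2, the erythroid form of the first enzyme, fell (-0.68), while ALAD rose (0.54). Of the erythroid and megakaryocytic transcription factors 4 of 25 rose and 10 fell (16% and 40%). Their median was -0.099, and 0.011 on TMM-scaled TPM, where the median of all genes was 0.093. LMO2 fell from 115, 113 and 113 to 70.3, 71.8 and 73.5 CPM (log2 fold change -0.66) and NFE2 by 0.48 on the log2 scale, while RUNX1 (0.49) and MYB (0.27) rose. The transferrin receptor TFRC also rose, from 781, 809.6 and 806 to 1011, 1079 and 1067 CPM.

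Other programmes held both rises and falls. Of the p53 targets 3 of 19 rose and 3 fell, near the shares of all genes (12.4% and 12.9%), with CDKN1A, the cell cycle inhibitor p21, at 5.16, 5.10 and 4.54 against 7.54, 8.31 and 8.16 CPM (log2 fold change 0.70 ± 0.089, adjusted p = 5.95e-05). Of the interferon and double-stranded RNA response genes 1 of 25 rose and 3 fell, and the largest fall there was IFITM2 (61.8, 61.9 and 61.3 against 38.7, 38.2 and 32.7 CPM, log2 fold change -0.76). In DNA replication 4 of 47 rose and 11 fell, and in cholesterol and fatty acid synthesis 9 of 34 rose and 7 fell (median 0.032), or 3 and 14 with the length trend removed (median -0.050). Of the replication-dependent histones 9 of 49 rose and 6 fell. Their mRNAs end in a stem-loop in place of a poly(A) tail, so poly(A) libraries hold only a part of them. Glycolysis and the hypoxia response (3 of 30 rose and 14 fell) and iron handling (1 of 18 rose and 8 fell) fell more often than they rose, with PGK1, a glycolytic enzyme, at -0.34 and FTL, the ferritin light chain, at -0.38 on the log2 scale.

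**Figure D2:**
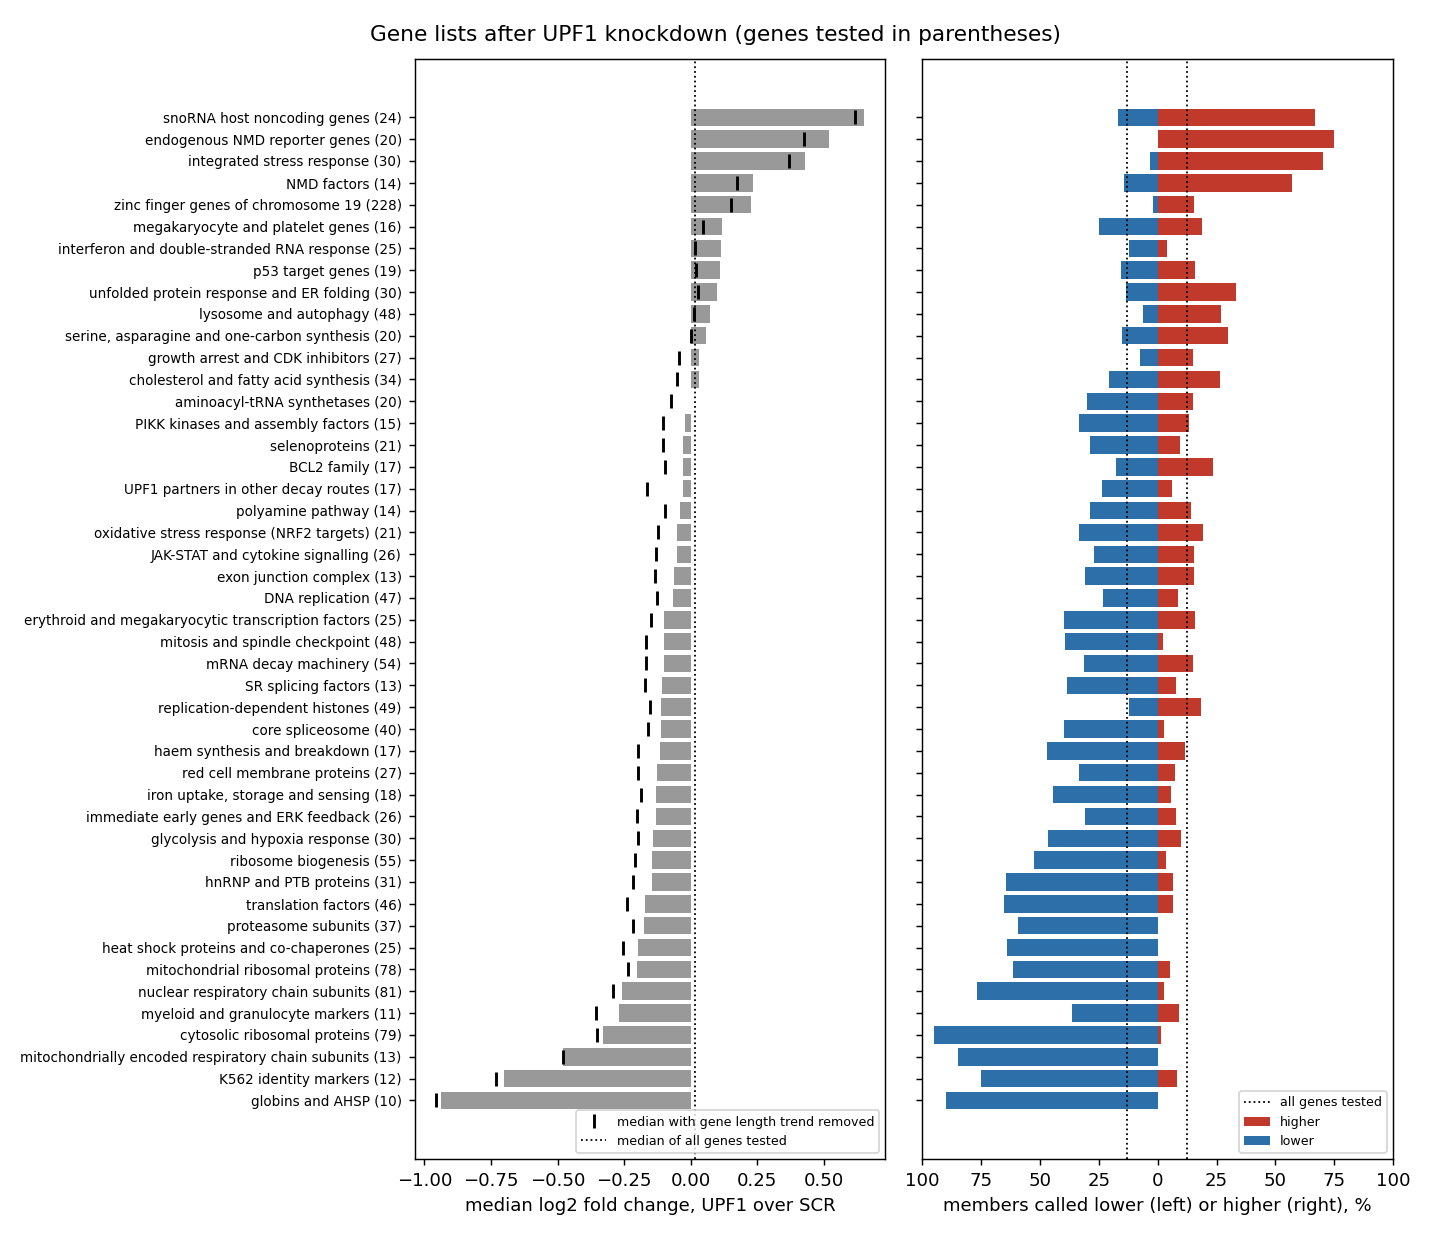
Gene lists with at least 10 genes tested. Left, the median log2 fold change of UPF1 over SCR (bars), the same with the gene length trend removed (ticks) and the median of all genes (dotted line). Right, the percent of members called lower (blue) or higher (red), with the shares over all genes as dotted lines. The snoRNA hosts stand at 0.65 and the globins at -0.94.

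The protein-coding genes with the largest changes were named without regard to the lists. INHBE, an activin subunit that responds to ER stress, was at 6.17, 5.72 and 5.16 CPM in the SCR libraries and 19.7, 19.9 and 21.0 in the UPF1 libraries (log2 fold change 1.83 ± 0.073, adjusted p = 6.79e-09). WWC3, a scaffold of the Hippo pathway, was at 5.27, 4.83 and 4.62 against 17.97, 17.3 and 18.3 CPM (log2 fold change 1.87 ± 0.070, adjusted p = 4.60e-09), and DNAJC25, a DnaJ-domain protein, at 9.04, 9.56 and 9.65 against 31.4, 31.1 and 30.9 CPM (log2 fold change 1.72 ± 0.050, adjusted p = 6.48e-10). In these genes the UPF1 and SCR libraries did not overlap, which the rule that chose them required. The other named rises were ENSG00000272410, FAM24B, MYO16, CLDN15, KCNMB3, ZNG1F, POMZP3, ANKS3 and ZFAND2A, with log2 fold changes between 1.30 and 1.97. ENSG00000272410, listed at 0.725, 2.85 and 4.05 against 9.45, 12.4 and 8.42 CPM, was called in 4 of the 6 fits without 1 library, and ZNG1F and POMZP3 share sequence with close copies.

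On the falling side, apart from UPF1, stood several genes best known from lymphoid cells. CD3D, a T cell receptor subunit, was at 10.7, 10.3 and 10.6 CPM in the SCR libraries and 3.42, 3.12 and 2.599 in the UPF1 libraries (log2 fold change -1.79 ± 0.10, adjusted p = 1.65e-07), and CD52 at 13.1, 11.7 and 12.7 against 4.56, 4.57 and 5.22 CPM (log2 fold change -1.38 ± 0.083, adjusted p = 2.14e-07). SH2D1B, an adaptor of SLAM receptors, and the cytokine receptor chain IL2RG fell by 1.65 and 1.16 on the log2 scale. The summed lymphoid markers, which include some of these genes, were lower in every UPF1 library as given with the libraries, and the part of other cells in these falls was not tested. EGR1, an immediate early transcription factor, was at 59.3, 47.7 and 44.6 against 23.2, 19.6 and 22.8 CPM (log2 fold change -1.21 ± 0.095, adjusted p = 1.70e-06), and JUNB and SOCS3 fell by 0.46 and 0.74, whereas JUN rose (0.43). DHX37, TMEM158, EPHB6, CKMT1B, HBE1 and RYR1 complete the named falls, of which CKMT1B shares its reads with CKMT1A.

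**Figure D3:**
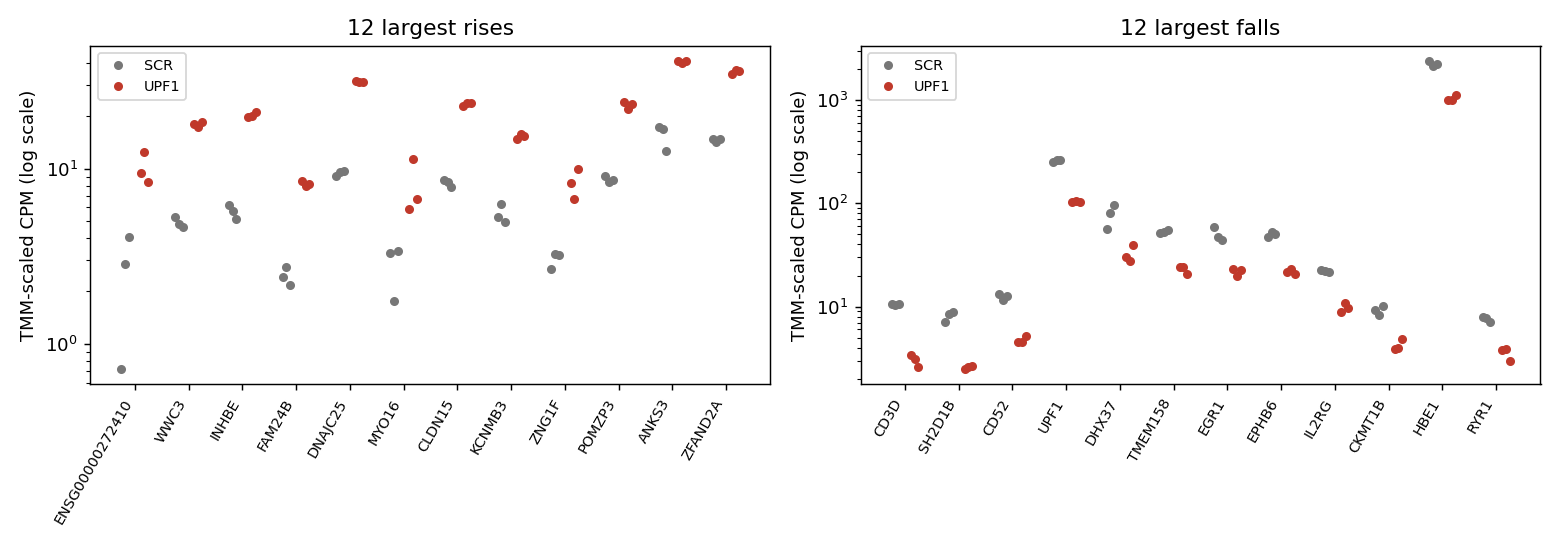
TMM-scaled CPM in each library (log axis) of the 12 protein-coding genes with the largest rise (left) and the largest fall (right). Grey points are SCR libraries and red points UPF1 libraries. The groups do not overlap in any of the genes, by the rule that chose them.

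Summed over the whole transcriptome, the transcripts annotated as NMD substrates took a larger share of TPM in every UPF1 library. Their share was 2.20, 2.24 and 2.17% in SCR and 2.99, 3.01 and 2.98% in UPF1, a ratio of 1.36 (exact two-sided permutation test, p = 0.1, the smallest that 3 against 3 libraries allow, n = 3 each). Transcripts of coding genes with no defined reading frame went from 2.89, 2.96 and 2.88% to 3.41, 3.48 and 3.41%, retained-intron transcripts from 4.12, 4.25 and 4.08% to 4.70, 4.67 and 4.60%, and lncRNA genes from 2.43, 2.3002 and 2.27% to 3.18, 3.13 and 3.18%. Ordinary coding transcripts went from 82.0, 82.0 and 82.3% to 79.3, 79.4 and 79.7%. None of these groups overlapped. In the DHX34 knockdown libraries of the same series, shown for scale, the NMD share was 2.25, 2.26 and 2.32%, below all UPF1 libraries (exact permutation p = 0.1).

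**Figure D4:**
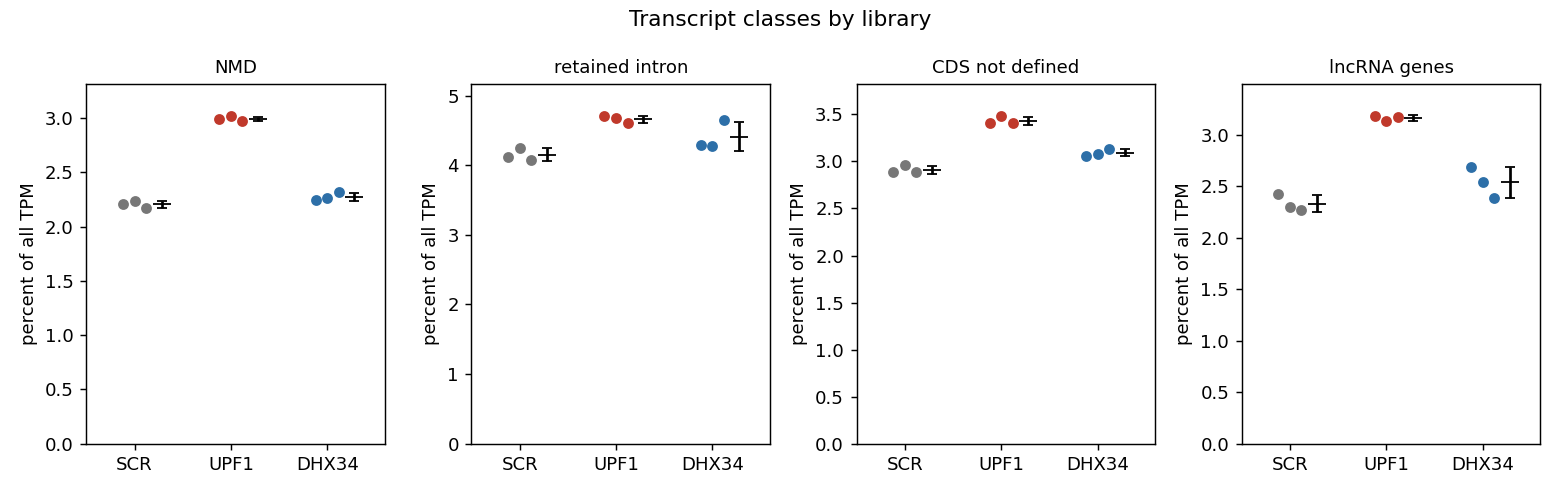
Share of all TPM, in percent, of 4 transcript classes in each SCR (grey), UPF1 (red) and DHX34 (blue) library, with the mean ± SD beside the points. The NMD share of the UPF1 libraries lies at 2.99% ± 0.0202 and that of the SCR libraries at 2.21% ± 0.0319.

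Gene by gene, counts were summed over the transcripts of each class. Over 25240 gene-class sums, 1317 rose (5.22%) and 2040 fell (8.08%) in edgeR. In this fit the NMD class went the other way from the coding class: 381 of 3771 NMD sums rose and 27 fell (median log2 fold change 0.47), and 720 of 12661 coding sums rose and 1901 fell (median -0.050). The direction of the coding class depended on the scaling, since on unscaled TPM 1543 coding sums rose and 212 fell (median 0.15), beside 536 and 5 NMD sums (median 0.46). Coding transcripts with an intron in the 3′ UTR rose in 17 and fell in 5 of 148 genes. Of 4889 retained-intron sums 84 rose and 70 fell, against 209 and 150 with DESeq2 and 155 and 17 on unscaled TPM. Of the 381 genes whose NMD sum rose, the whole gene rose in 179 (47.0%), fell in 54 and was not called in 148. Of all genes tested 12.4% rose and 12.9% fell. Of the 3815 genes with both NMD and coding transcripts expressed, a closer comparison, 810 rose (21.2%) and 658 fell. The gene total includes the NMD sum. The coding sums of the same genes, tested in 371, rose in 50, fell in 88 and were not called in 233. The number of called sums was 2019 without SCR replicate 1, 2049 without SCR replicate 3, and 1713, 1609 and 1851 without UPF1 replicates 1, 2 and 3.

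Within genes, the balance between NMD and coding transcripts shifted toward NMD. The NMD percent (NMD TPM as a percent of NMD plus coding TPM) had a median over 3815 genes of 5.85, 5.89 and 5.60% in SCR and 8.90, 9.10 and 9.07% in UPF1. The ratio rose in 546 genes (14.3%) and fell in 25 (0.655%) in limma at an adjusted p of at most 0.05, and 76.6% of all the genes had a positive change. Of the 546, the gene total was not called in 296, rose in 129 and fell in 121. Of the 546 genes 54.2% were thus not called and 23.6% rose, against 61.5% and 21.2% of all 3815. The number of genes called rests on all libraries: it was 354 and 245 without SCR replicates 1 and 3, and 108, 47 and 32 without UPF1 replicates 1, 2 and 3, and 21 of the rising genes were called in all of these fits.

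The stop codons of the leading NMD transcripts are shown here because the annotation places each of them before a later exon junction. Leading means the NMD transcript of the gene with the largest gain in mean TPM from SCR to UPF1. Each line gives 30 nt of the transcript from GENCODE on GRCh38, with the annotated stop codon in capitals.
SNRPA1-207: gtgaaactaaaatttTAAtccaggtgctgg
SNRPB-203: ctatttgtaaagctgTAGcctaaagggctc
TRA2B-205: aagctcaggaataagTGAagctgaaatttg
DNAJC2-202: tgttatctgatccagTGAaaagacgagcat
GTF3C3-207: aaagtgaggcgatgcTAGgccacggtgccc
SRSF3-203: cttctcaccaccctcTGAatctgcattagc
SRSF7-204: ttgagtcagtcgcctTGAttcagaatgtca
HNRNPL-202: gtgctaactcactgtTGAagcgtccaatgg
The stop codon of SNRPA1-207 is at chr15:101285796-101285798, minus strand, 164 nt before the last exon junction of the transcript. That of SNRPB-203 (chr20:2467258-2467260, minus strand) lies in an exon of 124 nt, and that of TRA2B-205 (chr3:185931772-185931774, minus strand) in an exon of 276 nt. Both exons overlap no exon of the gene's main coding transcript. The same holds for SRSF3-203 (chr6:36599852-36599854, plus strand), SRSF7-204 (chr2:38749319-38749321, minus strand) and HNRNPL-202 (chr19:38841624-38841626, minus strand), in exons of 456, 449 and 70 nt. The stop codons of DNAJC2-202 (chr7:103326658-103326660, minus strand) and GTF3C3-207 (chr2:196799495-196799497, minus strand) lie in exons that overlap the main coding transcript, 196 and 152 nt before the last junction.

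SNRPA1, a protein of the U2 snRNP, moved far toward its NMD transcripts. Its NMD percent was 1.75, 3.23 and 1.64% in the SCR libraries and 18.8, 21.8 and 19.9% in the UPF1 libraries (log2 ratio change 3.50 ± 0.31, adjusted p = 0.00897), while the gene total was not called (log2 fold change -0.072). SNRPB, a core Sm protein, had 0.284, 0.294 and 0.316% in the SCR libraries and 3.02, 2.57 and 2.77% in the UPF1 libraries (log2 ratio change 3.18 ± 0.27, adjusted p = 0.00897), although its gene total fell (log2 fold change -0.30). GTF3C3, a subunit of the RNA polymerase III factor TFIIIC, had 0.813, 0.548 and 0.403% in the SCR libraries and 8.20, 8.85 and 9.39% in the UPF1 libraries (log2 ratio change 3.14 ± 0.25, adjusted p = 0.00897). In each of these genes the UPF1 libraries lay well above all SCR libraries, and each was called in all 6 fits without 1 library.

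DNAJC2, a ribosome-associated chaperone, was listed at 0 NMD TPM in every SCR library and had an NMD percent of 14.2, 10.9 and 12.2% in UPF1 (adjusted p = 0.00103). XRCC5 (Ku80) and HAX1 were also listed at 0 in SCR and reached at most 2.81% and 0.784% in a UPF1 library. A zero from the quantification can be a failed assignment, so no fold is given. CLNS1A, an Sm protein assembly factor, had 0.735, 0.142 and 0.540% in the SCR libraries and 4.18, 4.03 and 3.97% in the UPF1 libraries. NPIPB12 had the highest level, 12.5, 15.1 and 20.7% in the SCR libraries and 61.1, 66.1 and 71.1% in the UPF1 libraries, but belongs to a family of near-identical copies and is uncertain. ATP6V1G1 and PPP2R2A were each called in 1 of the 6 fits without 1 library. The largest falls were in FASN, ANP32A, EDEM3, LAMTOR1 and TUBA1B. EDEM3 was called in 0 of the 6 fits without 1 library, LAMTOR1 and TUBA1B in 1 each and ANP32A in 5. Even in SCR the mean NMD percent of ANP32A, LAMTOR1 and TUBA1B was low, at 0.627, 0.753 and 0.0372%. FASN had 8.11, 9.54 and 5.11% in the SCR libraries and 1.16, 0 and 0.201% in the UPF1 libraries, with only 1 of the 6 fits calling it.

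**Figure D5:**
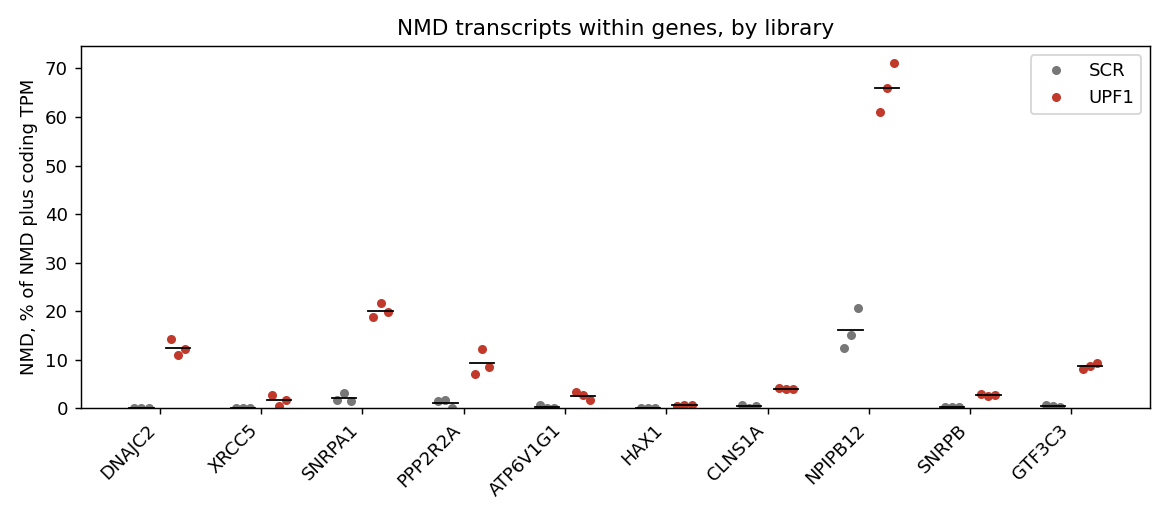
NMD percent (NMD TPM as a percent of NMD plus coding TPM of the gene) in each SCR (grey) and UPF1 (red) library for the 10 genes with the largest called rise in the NMD ratio. Lines mark the mean of 3 libraries. SNRPA1, DNAJC2 and GTF3C3 are higher in all 3 UPF1 libraries. So are XRCC5 and HAX1, which reach at most 2.81% and 0.784%.

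By function, the ratio rose most often in the SR splicing factors, which bind exonic enhancers and whose own genes carry poison exons (lists with at least 5 genes tested). It rose in 9 of 13 (69.2%, beside 14.3% of all genes) and the members were TRA2B, SRSF10, SRSF2, SRSF4, TRA2A, SRSF7, SRSF11, SRSF3, SRSF5. These genes and the hnRNP members are named because they belong to the lists and were called, a choice made after their values were seen. TRA2B-205 was at 39.4, 42.6 and 35.1 TPM in SCR and 121, 130.1 and 120.4 TPM in UPF1. SRSF3-203 was at 51.0, 45.8 and 45.1 TPM in SCR and 81.8, 85.8 and 89.3 TPM in UPF1, and SRSF7-204 at 4.00, 4.37 and 2.97 TPM in SCR and 12.9, 12.2 and 13.4 TPM in UPF1. All UPF1 libraries were above all SCR libraries in these transcripts. Each was picked as the NMD transcript of its gene with the largest gain in mean TPM, so the separation follows in part from that choice. The gene totals of the SR list did not follow, since 1 of 13 rose and 5 fell (7.69% and 38.5%). Of all genes 12.4% rose and 12.9% fell. The median of the SR totals was -0.11, and 0.056 on TMM-scaled TPM, where that of all genes was 0.093.

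Among the hnRNP and PTB proteins the ratio rose in 7 of 20, or 35% beside 14.3% of all genes (HNRNPDL, PTBP1, RBMX, PTBP2, HNRNPL, HNRNPM, HNRNPLL). HNRNPL-202 was at 1.95, 2.98 and 2.94 TPM in SCR and 6.74, 9.30 and 8.19 TPM in UPF1, and HNRNPDL-202 was listed at 0 in SCR and at 18.5, 16.1 and 15.9 TPM in UPF1. Outside splicing, the ratio rose in 4 of 7 polyamine pathway genes (57.1%) and 12 of 25 translation factors (48%). Among proteasome subunits the ratio rose in 9 of 19 (47.4%), and among aminoacyl-tRNA synthetases in 6 of 13 (46.2%). The ratio also rose in 13 of 33 nuclear respiratory chain subunits (39.4%) and 9 of 30 cytosolic ribosomal proteins (30%). In all of these lists most gene totals that were called fell. Of the NMD reporters, whose called gene totals rose, the ratio rose in 4 of 8 (50%). In the core spliceosome the ratio rose in 2 of 15 genes (13.3%), near the share of all genes. The median change of the ratio there was 0.73, against 0.46 over all genes tested. Lower shares were seen in mRNA decay genes (2 of 22, 9.09%, median 0.51) and zinc finger genes of chromosome 19 (2 of 42, 4.76%, median 0.26). Of 6 NMD factors 0 were called (median 0.36).

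The share of each transcript within its gene was tested without regard to class. Of 8338 genes with at least 2 transcripts above 5% of the gene, 300 (3.6%) were called in limma, of which 153 were also called by diffSpliceDGE on counts. The transcript that gained most share was an NMD transcript in 85 of the 300 (28.3%), against 12.2% of all genes tested, and the one that lost most was an NMD transcript in 6 and an ordinary coding transcript in 232 (2.00% and 77.3%, beside 3.97% and 75.6% of all genes tested). The gene total was not called in 157 of the 300 (52.3%, beside 64.2% of all genes tested). The number of genes called depended on every library and was 45, 83 and 70 without SCR replicates 1, 2 and 3, and 23, 3 and 17 without UPF1 replicates 1, 2 and 3.

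TRA2B moved toward the NMD transcript TRA2B-205, whose stop codon lies in the additional exon described with its sequence. It made up 21.4, 22.9 and 18.99% of the gene's TPM in SCR and 46.1, 48.5 and 45.1% in UPF1 (limma adjusted p of the transcript = 0.0129, and 0.0145 for the gene), and the gene was called in 2 of the 6 fits without 1 library. SNHG8-201, a transcript of a snoRNA host, made up 11.6, 13.9 and 13.6% of the gene's TPM in SCR and 44.8, 44.7 and 44.2% in UPF1 (adjusted p of the transcript = 0.00482, and 0.00531 for the gene). CDKN2AIP-201, a coding transcript of a p53 regulator, made up 43.3, 45.1 and 45.4% of the gene's TPM in SCR and 80.1, 76.6 and 77.9% in UPF1 (adjusted p of the transcript = 0.00648, and 0.00233 for the gene), and the gene total rose as well (log2 fold change 1.05). The groups did not overlap in any of them, which the choice of named genes required.

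THUMPD2 moved away from its coding transcript THUMPD2-204, which made up 65.3, 62.4 and 68.1% of the gene's TPM in SCR and 37.2, 27.4 and 21.9% in UPF1, while its NMD transcript THUMPD2-201 was at 2.96, 2.64 and 2.19 TPM in SCR and 9.66, 12.9 and 13.6 TPM in UPF1. KAT6A-202, a coding transcript of a histone acetyltransferase gene, made up 46.8, 44.2 and 38.6% of the gene's TPM in SCR and 0, 0 and 0% in UPF1. Another coding transcript of the gene, KAT6A-205, was listed at 0 in every SCR library and made up 41.8, 35.6 and 35.9% in UPF1, and whether these zeros come from the assignment of reads was not tested. SON-220, a transcript with no defined reading frame of a splicing cofactor gene, made up 0, 0 and 7.93% of the gene's TPM in SCR and 35.4, 35.1 and 34.3% in UPF1. One SCR library differed from the other SCR libraries for SON, and the gene was called in 1 of the 6 fits without 1 library. HSPG2-203, PINX1-203, NPIPB12-201, NOMO2-210, DPCD-202 and UBR4-204 were the remaining named switches, with changes in share of between -25.4 and 58.5 percentage points. NPIPB12 and NOMO2 have near-identical copies, HSPG2, UBR4 and THUMPD2 were called in none of the 6 fits without 1 library, and PINX1 and NOMO2 in 1 each. For SON-220, HSPG2-203 and UBR4-204 the gene passed the test but the transcript itself did not (adjusted p = 0.121, 0.0558 and 0.0513 in limma).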

How the data were processed

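Poly(A) RNA of K562 cells was sequenced after siRNA transfection. The authors quantified reads with Salmon, with GC-bias correction, against Ensembl transcripts of GRCh38, and deposited expected counts and TPM per transcript for each library. Expected counts in the deposited files are estimates that need not be whole. TPM in the deposited files are relative to each library's total and hold no depth. Tables of the authors' own comparisons (sleuth p and q values and effect sizes, SUPPA2 splicing differences with p-values and mean TPM) were not used.

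Transcripts were joined to genes and biotypes of GENCODE 44 by transcript ID without version: 198775 of 203027 matched (97.9%), and the others were left out. Of the matched, 85.8% have the same length in both annotations. Counts were summed per gene, or per gene and transcript class, rounded, and tested with edgeR 4.0.16 (TMM, filterByExpr with a minimum count of 10, quasi-likelihood test, Benjamini-Hochberg adjusted p of at most 0.005). Ratios of NMD to coding TPM and transcript shares were tested with limma 3.58.1 on a log2 scale with a pseudocount of 0.1 TPM (adjusted p of at most 0.05, Simes over the transcripts of a gene for shares), so changes of low transcripts are understated. The pipeline ran in R 4.3.3 and Python 3.11.15 and was tested on simulated data.

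Named genes were UPF1, the 12 largest rises and falls among called protein-coding genes of at least 5 CPM whose groups did not overlap, up to 2 rises and 2 falls per list of at least 5 CPM, 10 rises and 5 falls of the NMD ratio (at least 5 TPM), and 12 transcript switches called by limma and diffSpliceDGE (at least 10 TPM). The comparison and the gene lists were chosen with earlier results of these data known, and some values are given for genes outside the rule. The study names biological replicates, and p-values measure the spread between these libraries. Same-numbered SCR and UPF1 libraries did not deviate together, so no pairing was used. Alternatives covered scaling, filters, DESeq2 1.42.0, TPM, gene length and leaving out each library. Strand and isoform assignment were the authors', and overlapping genes and near-identical copies may share reads.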

Additional observations from a re-analysis of the deposited data

How the results depend on the processing

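The number of genes called was 4345, and between 3187 and 3733 without 1 library. It was 6917 at an adjusted p of 0.05, 2811 on length-scaled counts and 2467 on TMM-scaled TPM, an alternative chosen after seeing the data, with 1845 higher and 622 lower. Class sums called were 3357, with 6949 at an adjusted p of 0.05, 5469 with DESeq2 and 1609 to 2541 without 1 library. The NMD ratio calls (571) ranged from 32 to 396 without 1 library. Transcript usage calls (300) ranged from 3 to 83 without 1 library, and were 634 with diffSpliceDGE, 569 with a pseudocount of 1 TPM and 620 in genes of at least 10 TPM. With a replicate block, 4345 genes, 2264 class sums, 2 NMD ratios and 0 genes of transcript usage were called by limma or edgeR. For usage 1576 genes had an unadjusted p under 0.05 in that limma fit, and diffSpliceDGE with the block called 525. The correlations of same-numbered deviations were 0.042, -0.027 and -0.0012, so no shared deviation of same-numbered libraries was seen. Such correlations cannot show whether these libraries came from the same transfection, which was not tested. The difference in the NMD share was 0.79 percentage points, 0.61 as a share of expected counts, and 0.77 to 0.80 without 1 library. Of 2700 fold changes of the 180 named genes under alternatives, 2443 kept direction and call and 250 lost the call. The 7 that changed sign did so on unscaled TPM: PNRC2 0.079, GSPT1 0.031, PPP1R15B 0.059, GLUL 0.075, SDF2L1 0.010, SRSF1 0.023, XPC 0.0019. The cause was not tested. How far depth limits the isoform results was not tested.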
